A study of Mus musculus with 4 samples.

Results

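The genes described here encode titin and its partners at the ends of the spring-like titin filament in the heart muscle sarcomere. They were taken as a fixed list of 9: Ttn, Actn2, Ldb3, Myoz2, Tcap, Csrp3, Nebl, Myom1 and Myom2, of 21670 protein-coding genes on chromosomes 1 to 19 and X. Their values were the peaks of trimethylation of lysine 4 on histone H3 (H3K4me3) within 1000 bp of any annotated protein-coding start, and those inside the gene body. The mark was profiled by sequencing of immunoprecipitated chromatin from hearts of 2-month-old female B6CASTF1/J mice. There were 4 libraries of pool G and pool H, labelled biological replicates 1 and 2. Each pool was made of 2 heart biosamples and carried 2 technical replicates. The same donor record is given for every library, so whether different animals went into the pools is unknown, and a spread between pools may be technical. No treatment, other genotype or other tissue was included.

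Titin is a single giant protein that spans from the Z-disc, which borders the sarcomere, to the M-band at its centre. At the Z-disc, alpha-actinin 2 (Actn2) crosslinks actin filaments, and telethonin (Tcap) caps titin's end. Ldb3 (also called cypher or ZASP), myozenin 2 (Myoz2), muscle LIM protein (Csrp3) and nebulette (Nebl) are scaffold and anchoring proteins of the same structure, and the myomesins Myom1 and Myom2 link titin to myosin at the M-band. H3K4me3 is a histone mark found around the starts of active genes, and its width and position along a gene differ between genes.

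Values came from 4 peak lists on mm10: pool G's own list, pool H's own list, a list from both pools called with pseudoreplicates, and a list from both pools called replicated, which is used unless another list is named. They held 24826, 21505, 26412 and 24996 peaks. The signal value of a peak, the authors' own, is read here as a fold enrichment over control, which is an assumption. Read depth is unknown, and no list holds values per library, so no comparison carries a test. Of the heart muscle cell markers, 5 of 5 had a promoter peak, and Myh6 (20319 bp), Pln (8174 bp) and Ryr2 (7971 bp) had the widest domains of that list. The domain of Myh6 also held starts of Myh7, Gm17428, Gm29015, Mhrt and Mir208b, so its width is not that of a single promoter. That of Pln also held a start of Gm47644. Endothelial markers had a promoter peak in 4 of 4 cases, fibroblast markers in 4 of 4 and mural markers in 3 of 4, with Rgs5 marked in pool G's own list and not in pool H's. None of 7 skeletal muscle markers had a promoter peak. The tissue held several cell types, so a lower enrichment through fewer marked cells and a lower one through less mark per cell cannot be told apart.

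The stretches just upstream of annotated starts show how little CpG most of these genes carry and where muscle-related motifs fall. RefSeq promoters of GRCm38.p6, 250 bases before to 50 after a start, matched 7 of the 9 genes with 12 entries; Tcap and Myom2 did not match. Of the 12, 3 are starts of Nebl with no peak within 1000 bp in any list, at chr2:17462856, chr2:17526130 and chr2:17670165. Of the other entries, 5 are printed 5′ to 3′ on the coding strand as 180 reference bases each, and they are not the alleles of the hybrid. Those of Ttn, Ldb3, Myoz2 and Myom1 were chosen for a MEF2 motif or a CArG box, and that of Nebl for its CpG content. They lie at chr2:76982548-76982727 (Ttn, minus strand), chr14:34588682-34588861 (Ldb3, minus), chr3:123034988-123035167 (Myoz2, minus), chr17:71019341-71019520 (Myom1, plus) and chr2:17731135-17731314 (Nebl, minus). Capitals mark the MEF2 motif, the CArG box and GATAA or its complement.
Ttn: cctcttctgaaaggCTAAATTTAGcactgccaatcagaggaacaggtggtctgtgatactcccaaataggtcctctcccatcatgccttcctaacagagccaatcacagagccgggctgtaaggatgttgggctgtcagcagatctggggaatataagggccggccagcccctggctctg
Ldb3: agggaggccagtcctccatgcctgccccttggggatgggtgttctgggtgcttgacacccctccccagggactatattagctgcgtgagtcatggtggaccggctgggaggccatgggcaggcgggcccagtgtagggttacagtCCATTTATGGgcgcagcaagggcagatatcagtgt
Myoz2: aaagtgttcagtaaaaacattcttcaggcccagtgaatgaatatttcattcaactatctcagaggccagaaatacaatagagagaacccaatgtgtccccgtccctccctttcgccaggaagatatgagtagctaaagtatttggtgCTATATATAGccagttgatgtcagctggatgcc
Myom1: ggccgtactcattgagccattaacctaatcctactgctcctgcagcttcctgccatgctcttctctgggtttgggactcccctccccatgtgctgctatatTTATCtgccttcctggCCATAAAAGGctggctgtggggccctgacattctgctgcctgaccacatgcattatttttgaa
Nebl: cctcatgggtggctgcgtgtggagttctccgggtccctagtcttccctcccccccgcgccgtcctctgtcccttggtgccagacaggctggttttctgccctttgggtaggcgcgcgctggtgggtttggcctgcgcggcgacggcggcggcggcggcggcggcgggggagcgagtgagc

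Motifs were searched on both strands in the 250 bases before each RefSeq start, with positions counted from that start. The MEF2 motif, named for the muscle transcription factor MEF2, was found in 2 of the 7 matched genes, against 2.43% of 20061 promoters. It lay at -166 to -157 in Ttn, as CTAAATTTAG, and at -33 to -24 in Myoz2, as CTATATATAG. The RefSeq start of Myoz2, chr3:123034987, lies downstream of the GENCODE start at chr3:123035015 that was used for its peaks. Its motif therefore overlaps the GENCODE start, and the last bases printed for it lie past that start. The CArG box, to which serum response factor is known to bind, was found in 3 of the 7, against 1.38% of promoters. It lay at -35 to -26 in Ldb3 and at -99 to -90 in Myom1, and at the third gene, Nebl, it lay before the unmarked start at chr2:17462856. GATAA was found in 3 of the 7 against 20.0%, CANNTG in 6 against 62.4%, CATTCC in 1 against 11.5% and TATAAA in 0 against 11.2%. The CATTCC match and those to GATAA at Nebl also lay before its unmarked starts. CANNTG can overlap other motifs. These genes have up to 4 entries each, so a match by gene had more windows to fall in than a match by promoter. The 12 entries held a median of 5.5 CG dinucleotides in 300 bases (range 1 to 32), against 14 over all 20061 promoters. The entry with 32 was the first start of Nebl printed above.

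All 9 genes had a promoter peak in each of the 4 lists. Over all protein-coding genes, 63.0% had one in the replicated list, 63.4% in pool G's, 61.3% in pool H's and 61.1% in all 4 lists. By the CpG content of the windows around their starts, 8 of the 9 genes were low-CpG, as were 66.3% of all genes, and 46.0% of low-CpG genes had a promoter peak. Myom1 was the exception, through its first annotated start, which it shares with a neighbouring pair of genes. The mark on the 9 genes was low and broad. Their median fold enrichment was 8.95 (range 5.87 to 12.1), against 15.3 over all 13657 occupied genes and 13.4 over the occupied low-CpG genes. Their median domain, with peaks up to 1000 bp apart joined, was 4322 bp wide (range 1473 to 6758 bp), against 1799 bp over all occupied genes and 1471.5 bp over the low-CpG ones. In pool G's list the medians were 10.98 and 4188 bp for the 9 genes and 18.2 and 1892 bp for all occupied genes, and in pool H's 7.71 and 2965 bp for the 9 genes and 12.9 and 1680 bp for all. Each of the 9 lay below the median fold enrichment of all occupied genes and, except Tcap, above their median width. Both values are taken over all starts of a gene, and at Nebl and Myom1 they come from different promoters. At Nebl the fold of 8.85 lay at the first start, in a domain of only 1180 bp. Its domain of 2794 bp lay at the second promoter, with a fold of 6.65. At Myom1 the fold of 12.1 lay at the first start, in a domain of 2920 bp. Its domain of 4322 bp lay at the downstream start, with a fold of 5.58. This domain, whose width is also the median of the 9, joined weak peaks to a main peak of 2750 bp. A weak peak of 338 bp had a -log10 q of only 0.64 and none overlapping in pool H's own list. Another, of 353 bp, overlapped none in either pool's own list.

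**Figure D1:**
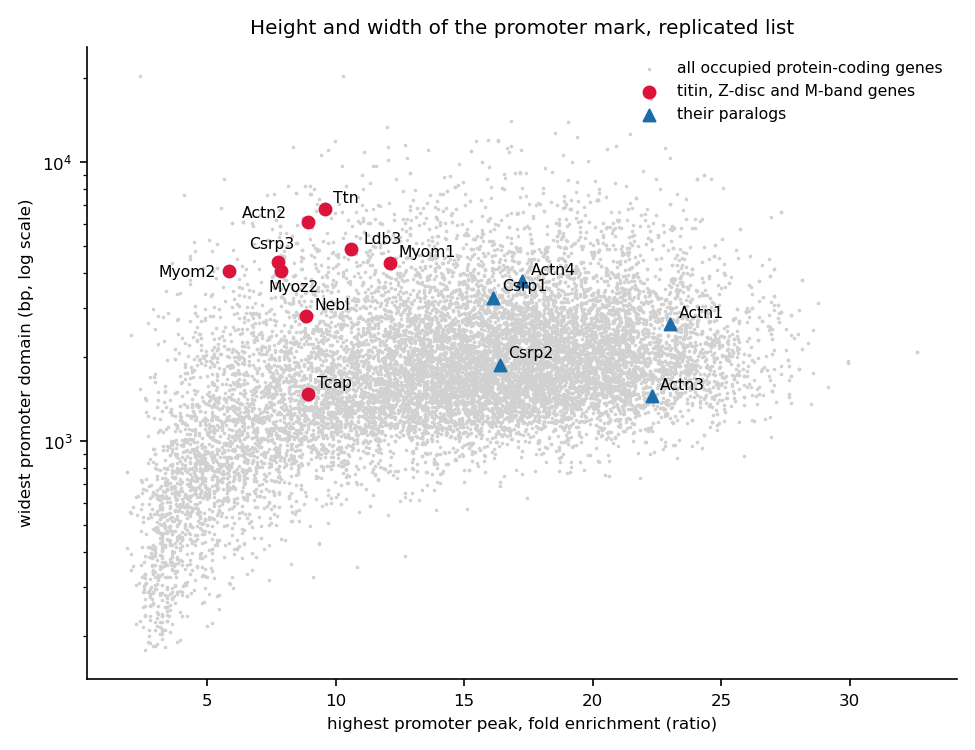
Fold enrichment of the highest promoter peak (x axis, ratio) against the width of the widest promoter domain (y axis, bp, log scale) in the replicated list; each point is 1 occupied gene, red circles are the 9 titin, Z-disc and M-band genes and blue triangles the 5 occupied paralogs. The red points lie at folds of 5.87 to 12.1 and, except Tcap, at widths from 2794 bp upwards, whereas the paralogs lie at folds of 16.1 to 23.0. The points of Nebl and Myom1 pair the fold at the first start with the width of the domain at a later start.

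Ttn carried the widest domain of the 9 in the lists made from both pools; in pool G's own list Myom1 was wider, and in pool H's Actn2 and Csrp3 were. Its highest promoter peak reached a fold of 12.3 in pool G, 8.44 in pool H and 9.59 in the replicated list (mean of the pools 10.4 ± 2.74, SD, n = 2). Its domain spanned 9520 bp in pool G, 4143 bp in pool H and 6758 bp in the replicated list, wider than 98.8% of occupied genes there. The gene lies on the minus strand of chromosome 2, chr2:76703980-76982547, and is low in CpG, with an observed over expected ratio of 0.28 around its first start. The mark there formed 3 promoter peaks. A peak upstream, from -1228 to -220 bp, had a fold of 4.69, followed by a narrow one from 25 to 513 bp downstream with 8.63. The highest and widest, of 2205 bp from 710 to 2914 bp, lay over intron 1, exon 2 and intron 2 of the longest transcript by exons, which has 347. Its summit stood at 2351 bp in the replicated list, beside the start of a transcript of 312 exons at 2365 bp. In pool H the narrow peak was slightly the higher, with a fold of 8.44 against 8.19 at the wide one, whose summit stood at 2592 bp. The mean of the pools given above thus takes different peaks from pool G and pool H. The first base of the gene lay in no peak in any list.

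Past these peaks, 8 weaker ones reached to 12879 bp downstream in the replicated list, with folds of 2.38 to 3.46. None of the 8 had an overlapping peak in pool H's own list, and 6 had one in pool G's. Most of the difference in domain width between the pools at Ttn lay in this stretch. Of the 14 annotated protein-coding starts of Ttn, only the first 3, within 2365 bp, had a peak within 1000 bp in any list. The 11 internal starts, from 50307 to 156005 bp downstream, had none.

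A separate internal peak of Ttn was found in all 4 lists at chr2:76805454-76808160. It was 2707 bp wide with a fold of 4.91 in the replicated list. Pool G's list had 1 peak of 3129 bp there, with a fold of 7.19, and pool H's had 2, of 356 and 1934 bp, with folds of 3.86 and 3.93. The peak overlaps exons 222 and 223 of the 347-exon transcript and begins 174387 bp downstream of the first start. The nearest annotated start of Ttn itself, of any transcript type, was 18382 bp away. An internal peak of at least 1000 bp, seen in both pools and at least 10 kb from any annotated start, was found in 0.526% of all protein-coding genes, 114 in all, Ttn and Ldb3 among them. Short genes have no room for such a peak, and the share over long genes was not worked out.

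**Figure D2:**
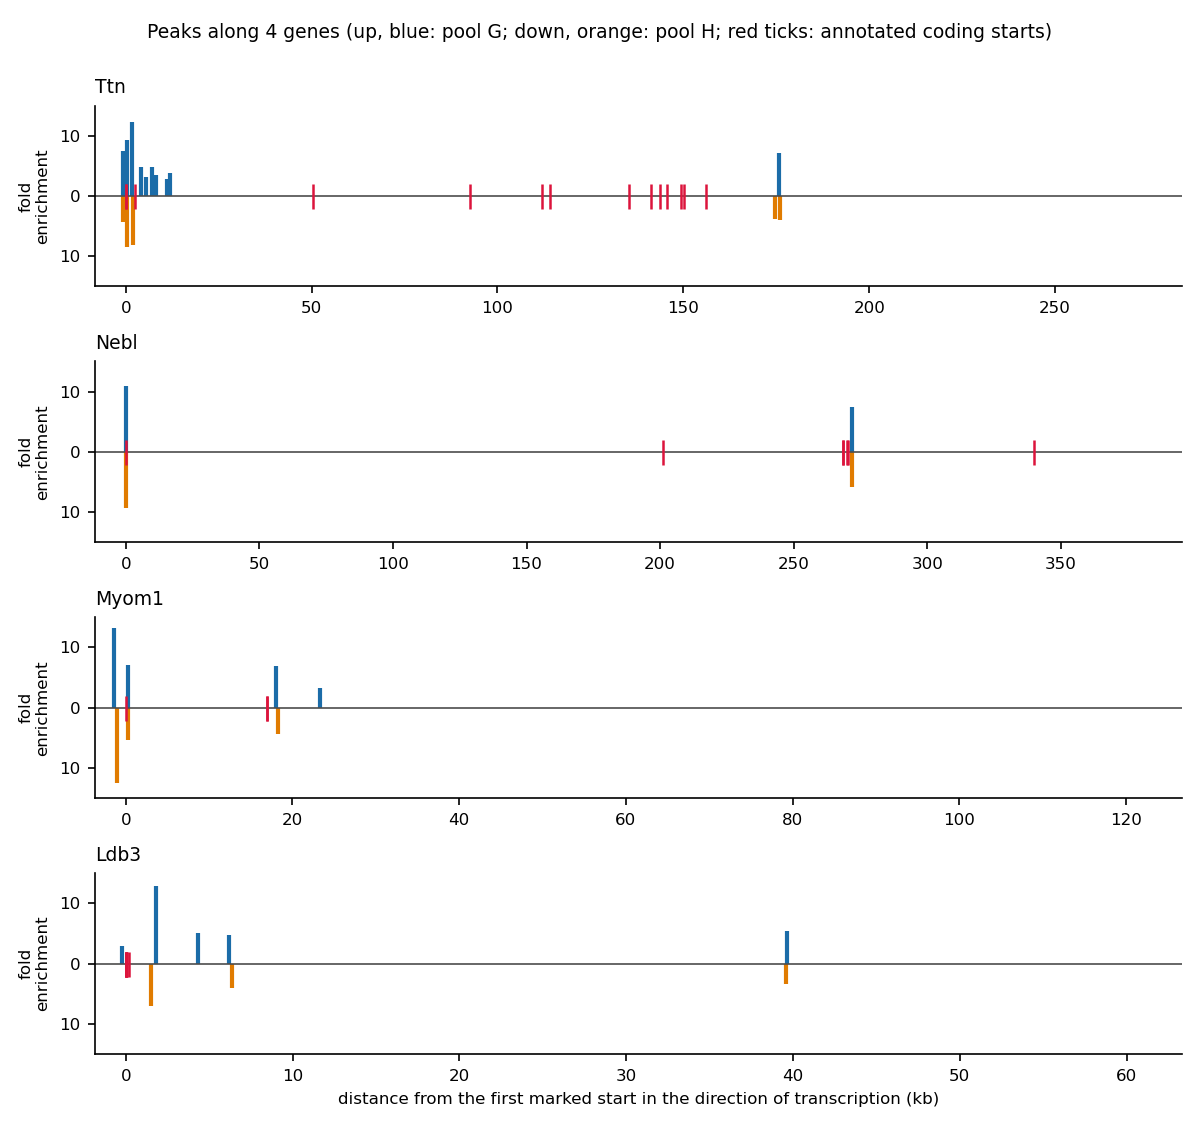
Peaks along Ttn, Nebl, Myom1 and Ldb3, drawn at their midpoints against distance from the first marked start (x axis, kb); bars show fold enrichment (y axis, ratio), upward in blue for pool G's own list and downward in orange for pool H's, and red ticks are annotated protein-coding starts. The internal peaks of Ttn at 174387 bp and of Ldb3 at 39107 bp stand away from every red tick, whereas the second cluster of Nebl stands at an annotated start.

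At the Z-disc, Actn2 had a fold of 10.2 in pool G, 7.71 in pool H and 8.95 in the replicated list (mean of the pools 8.97 ± 1.78, SD, n = 2). Its domain was 6187 bp wide in pool G, 4904 bp in pool H and 6091 bp in the replicated list. This was the second widest of the 9 in the replicated list, at a G over H width ratio of 1.26. The gene lies at chr13:12269426-12340760 on the minus strand, and the mark covered exon 1, exon 2 and part of intron 2 of the 22-exon transcript. The highest peak ran from 79 to 2631 bp downstream of the start. A start 58213 bp into the gene, of a 5-exon transcript, had no peak within 1000 bp.

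Ldb3 varied most between the pools in fold enrichment, with 12.9 in pool G and 7.03 in pool H, a ratio of 1.83, and 10.6 in the replicated list (mean of the pools 9.95 ± 4.13, SD, n = 2). Its domain was 6827 bp wide in pool G, 2965 bp in pool H and 4885 bp in the replicated list. The gene lies at chr14:34526603-34588682 on the minus strand, and its 7 coding starts, all within 201 bp, were marked in each list. The main peak, 3496 bp, ran from 31 to 3526 bp downstream, through exon 1 into intron 1. An internal peak at chr14:34548514-34549575 lay in intron 10 of a 15-exon transcript, 39107 bp downstream of the first start. It was 1062 bp wide with a fold of 4.54 in the replicated list, 1089 bp with 5.37 in pool G and 869 bp with 3.32 in pool H. The nearest annotated start of Ldb3 itself, of any transcript type, was 27419 bp away.

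Myoz2, which binds calcineurin and alpha-actinin, was among the more even genes. Its fold was 9.04 in pool G, 7.67 in pool H and 7.90 in the replicated list (mean of the pools 8.36 ± 0.97, SD, n = 2). Its domain was 3195 bp wide in pool G, 4040 bp in pool H and 4060 bp in the replicated list. In pool H a weak second peak lay within 1000 bp of the first and was joined to it, and in pool G that peak was not listed. Its only coding start lies at the end of chr3:123006206-123035015, on the minus strand.

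Tcap was the exception in width. Its fold was 10.98 in pool G, 7.90 in pool H and 8.95 in the replicated list (mean of the pools 9.44 ± 2.18, SD, n = 2). Its single peak was 1497 bp wide in pool G, 1186 bp in pool H and 1473 bp in the replicated list. The gene itself, chr11:98383811-98384953 on the plus strand, is only 1143 bp long with 2 exons. The peak began 22 bp after the start and ended 1494 bp after it, so in the replicated list it covered all but the first bases of the gene and ran past its end.

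Csrp3 had a fold of 9.11 in pool G, 7.13 in pool H and 7.76 in the replicated list (mean of the pools 8.12 ± 1.40, SD, n = 2). Its domain was 4043 bp wide in pool G, 4375 bp in pool H and 4385 bp in the replicated list, the smallest relative spread in width of the 9. The gene lies at chr7:48830398-48848033 on the minus strand. The mark ran from 68 bp before its first start to 4316 bp after it, over exon 1 and into intron 1 of its 6-exon transcript, and ended close to the third coding start at 4382 bp. All 3 of its coding starts had a peak within 1000 bp, and no peak lay elsewhere in the gene body in the replicated list.

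Nebl had 2 separate marked promoters 270111 bp apart. Of occupied genes, 6.44% had 2 or more separate promoter domains, and of the 9 genes Nebl and Myom1 did. At the first start, of a 7-exon transcript, the fold was 10.98 in pool G, 9.25 in pool H and 8.85 in the replicated list (mean of the pools 10.1 ± 1.22, SD, n = 2). That peak was 1191 bp wide in pool G, 1151 bp in pool H and 1180 bp in the replicated list. It straddled the start, from -536 to 643 bp. The second promoter, of a transcript of 28 exons, had a lower and wider peak. Its fold was 7.52 in pool G, 5.84 in pool H and 6.65 in the replicated list, and its width was 2844 bp in pool G, 2474 bp in pool H and 2794 bp in the replicated list. The windows of these starts also differed in CpG, with observed over expected ratios of 0.58 at the first and 0.24 at the second. Starts of 4 other coding transcripts, 201063 to 340035 bp downstream of the first, had no peak within 1000 bp in any list. Nebl lies at chr2:17343909-17731464 on the minus strand.

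**Figure D3:**
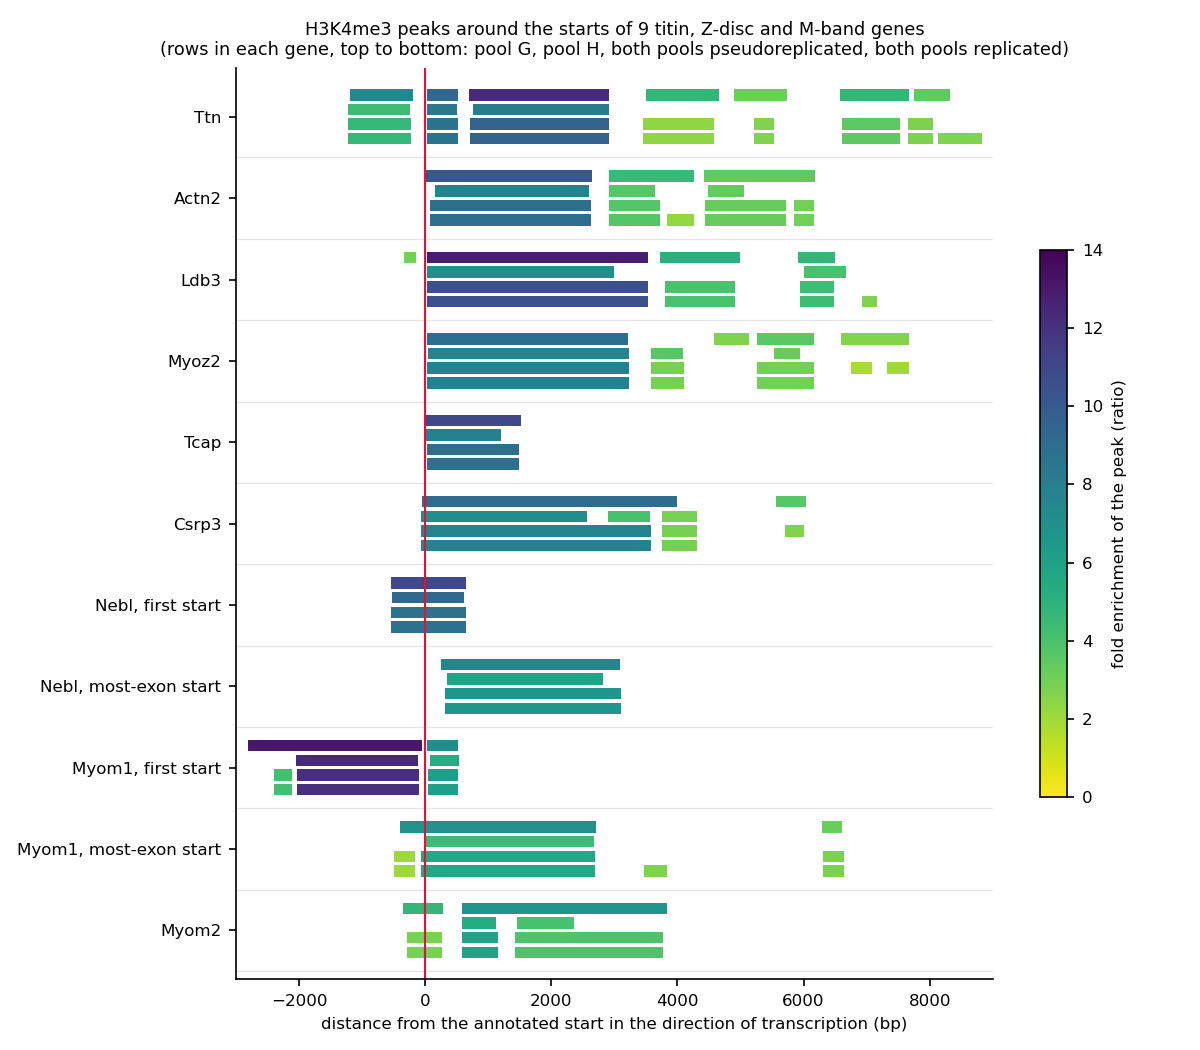
Peaks from 3000 bp upstream to 9000 bp downstream of annotated starts (x axis, bp in the direction of transcription; the red line is the start), with fold enrichment as colour; each gene has a row per list, and Nebl and Myom1 are shown at 2 starts each. Most bars begin at or just right of the line and run downstream, whereas the peak at the first start of Nebl straddles it from -536 to 643 bp and the highest peak at the first start of Myom1 lies left of it.

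At the M-band, Myom1 had 2 marked promoters 16888 bp apart on the plus strand of chr17:71002633-71126856. The first start, of an 8-exon transcript, shares its window with starts of Myl12a and Myl12b, which encode regulatory light chains of non-muscle myosin. The highest peak there had a fold of 13.2 in pool G, 12.5 in pool H and 12.1 in the replicated list (mean of the pools 12.8 ± 0.50, SD, n = 2), and lay upstream, on the side of those genes. Its share that belongs to Myom1 cannot be told apart. At the downstream start, of the 38-exon transcript, the fold was 6.91 in pool G, 4.43 in pool H and 5.58 in the replicated list. The main peak there was 3108 bp wide in pool G, 2696 bp in pool H and 2750 bp in the replicated list. It began before the start in the replicated list and covered exon 1 and part of intron 1. The widest domain of the gene, 9960 bp in pool G, lay on the side of Myl12a and Myl12b, whereas that of pool H, 2696 bp, and that of the replicated list, 4322 bp, lay at the downstream start.

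Myom2 had the lowest fold of the 9 when Myom1 is taken at its first start; at its downstream start Myom1 was lower than Myom2 in pool H and in the replicated list. In Myom2 the fold was 6.63 in pool G, 5.40 in pool H and 5.87 in the replicated list (mean of the pools 6.01 ± 0.87, SD, n = 2), which is above only 9.31% of occupied genes in the replicated list. Its domain was nevertheless 4188 bp wide in pool G and 4065 bp in the replicated list, against 1780 bp in pool H. The gene lies at chr8:15057653-15133541 on the plus strand. A weak peak over the start, from -289 to 270 bp with a fold of 2.88, was in pool G's list and not in pool H's. The higher peak began 578 bp downstream, in intron 1, and another in the same intron reached 3775 bp.

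**Figure D4:**
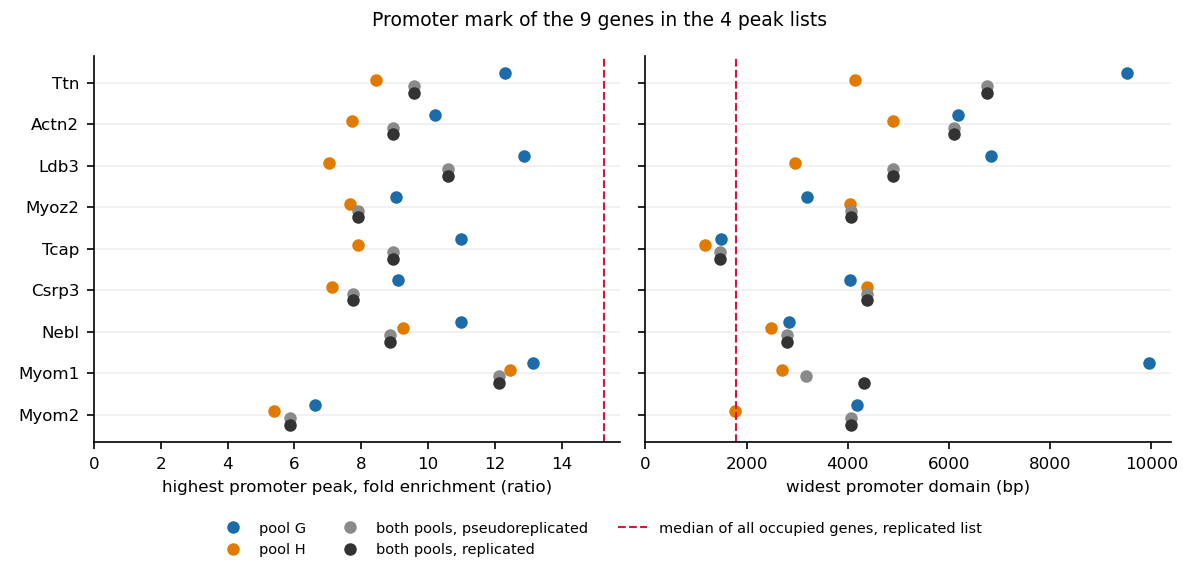
Fold enrichment of the highest promoter peak (left, ratio) and width of the widest promoter domain (right, bp) of each of the 9 genes in each of the 4 lists; the dashed line is the median of all occupied genes in the replicated list. Pool G's point lies right of pool H's in fold for every gene, and Ttn, Ldb3 and Myom1 are farthest apart in width in bp.

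Between the pools, the fold enrichment was higher in pool G than in pool H for 9 of 9 genes, as it was for 96.1% of genes occupied in both. The median ratio of G over H was 1.28 for the 9 genes (range 1.06 to 1.83) and 1.42 for all. The domain was wider in pool G for 7 of 9 genes and for 88.7% of all, with median ratios of 1.26 and 1.13. Myoz2 and Csrp3 were the genes wider in pool H. In the list called with pseudoreplicates the folds of all 9 genes were equal to those of the replicated list, and so were 8 of the 9 widths, with Myom1 at 3185 bp.

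The mark lay on the transcribed side of the start in most of the 9 genes. The downstream share is the percent of marked base pairs within 5000 bp either side that lay downstream of the first marked start. Its median was 98.4% for the 9 genes and 67.3% for all occupied genes. Actn2, Ldb3, Myoz2 and Tcap had 100% in the replicated list, Csrp3 98.4% and Myom2 91.7%. These 6 of 9 passed 90%, against 13.6% of occupied genes and 18.0% of the low-CpG ones. In pool G's list 6 of 9 passed, against 12.2% of genes, and in pool H's list 6 of 9, against 16.0%. Ttn had 79.1%, through its upstream peak. Nebl had 54.5% at its first start and 100% at its second promoter, and Myom1 12.5% at its first start and 88.4% at its downstream start. In 6 of the 9 the first annotated base lay outside any peak of the replicated list, against 12.5% of occupied genes and 13.9% of the low-CpG ones. The nearest peak on the transcribed side then began 22 bp after the start at Tcap, 25 at Ttn, 31 at Ldb3, 36 at Myoz2, 48 at Myom1 and 79 at Actn2. At Ttn and Myom1 a peak also lay upstream. Coding starts 92 bp further at Ttn and 37 bp further at Ldb3 lay inside a peak. The count depends on the list: Actn2's first base was covered in pool G's, and Myom2's was not in pool H's.

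**Figure D5:**
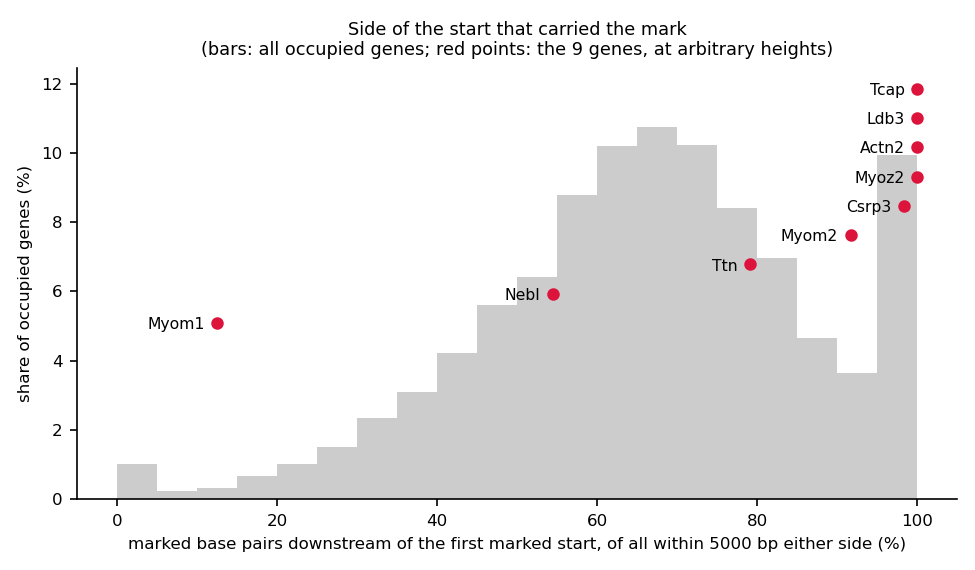
Share of marked base pairs downstream of the first marked start (x axis, %) for all occupied genes (bars, share of genes in % on the y axis) and for the 9 genes (red points, at arbitrary heights), replicated list. The bars centre near 67.3%, 6 of the red points lie above 90%, and Myom1, at its shared first start, lies at 12.5%.

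In the gene body away from protein-coding starts, 7 of the 9 genes had a peak, all but Tcap and Csrp3. Of all protein-coding genes 16.6% had one, and of occupied genes at least 10 kb long 25.7%; the lengths of the 9 range from 1.143 kb (Tcap) to 387.556 kb (Nebl), and all but Tcap exceed 10 kb. These body peaks numbered 24, with a median fold of 2.98 and a median width of 476 bp, and 19 of them lay within 15 kb of the first marked start. Some of the 24 lay inside the joined promoter domain and so also count in its width. Myom2's only body peak was among these, and it overlapped the start of a transcript not classed as protein-coding. With starts of any transcript type, 6 genes had a body peak. Nebl's only body peak overlapped none in either pool's own list. Pool G's own list held an overlapping peak for 17 of the 24, pool H's for 8, and both for 7. Over all genes 52.9% of body peaks were in both. Of the 17 promoter peaks of the 9 genes, 15 were in both. The share over the promoter peaks of all genes was not worked out, so this count is not read as a trait of the 9. The widest 5% of occupied genes, those above 4482 bp, held 3 of the 9: Ttn, Actn2 and Ldb3.

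The paralogs of these genes serve mainly other tissues or muscle types, and those with a promoter peak had a higher fold. Of 9 paralogs, 5 had a promoter peak, against 63.0% of all protein-coding genes. Actn1 and Actn4, the non-muscle alpha-actinins, had folds of 23.0 and 17.3 and widths of 2614 and 3738 bp. Actn3, the alpha-actinin of fast skeletal muscle, had 22.3 and 1452 bp, with 6.13% of the marked base pairs downstream of its start, in a window shared with Zdhhc24. Csrp1 and Csrp2, LIM proteins related to Csrp3, had 16.1 and 16.4, with widths of 3261 and 1878 bp. Each of these 5 folds was above that of every one of the 9 genes, and none of the 5 passed 90% downstream. The share of the mark that belongs to Actn3 rather than Zdhhc24 cannot be told apart. Actn1, Actn4 and Csrp2 were high-CpG, and Actn3 and Csrp1 low-CpG. Over all genes the median fold was 16.8 for occupied high-CpG genes and 13.4 for occupied low-CpG ones. The contrast between paralogs and the 9 genes was not tested apart from CpG class. Myoz1, Myoz3, Neb and Myom3, known mostly from skeletal muscle, had no promoter peak in the replicated list or in either pool's own.

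Low, broad and downstream marks were also found outside the 9 genes, in markers of other cell types as well as in other sarcomere genes. The 4 endothelial markers had medians of 10.8 in fold, 6519.5 bp in width and 91.1% in downstream share. The 4 fibroblast markers had medians of 6.70, 2766.5 bp and 98.6%, and the 3 occupied mural markers 7.60, 2845 bp and 84.7%. The 5 heart muscle cell markers had medians of 9.04, 7971 bp and 77.4%. Single markers differed from these medians, and endothelial Kdr had a fold of 17.2, above the median of all occupied genes. Mural Myh11 had a domain of only 1154 bp, below the median of 1799 bp over all occupied genes, with 0% of its mark downstream. Heart muscle Myh6 and Actc1 had downstream shares of 50.1% and 55.2%, below the 67.3% of all occupied genes. Of 18 other Z-disc genes, 18 had a promoter peak, with a median fold of 9.82, a median width of 2778.5 bp and 9 above 90% downstream. In pool H's own list 17 had a promoter peak, and Myot, with a fold of 2.49 in the replicated list, had none there. The widest domains of these genes were those of Fhl2 (6776 bp), the chaperone gene Bag3 (6700 bp) and the small heat shock gene Cryab (4433 bp). The window of Cryab is shared with Hspb2. Not all of these genes were low. Bag3 (fold 23.5), Pdlim1 (20.0), Pdlim5 (17.7) and Pdlim7 (16.6) lay above the median fold of all occupied genes, 15.3, and the others below it. Of 15 partners of titin's I-band and M-band, 13 had a promoter peak, with a median fold of 8.27, a median width of 2772 bp and 7 above 90% downstream. Among them Nbr1 (fold 15.6), Obsl1 (18.4) and Sqstm1 (23.3) lay above the median fold of all occupied genes, and the other occupied ones below it. Rbm20, the splicing factor that acts on titin transcripts, had a domain of 5525 bp, and the ubiquitin ligase gene Trim63 one of 4452 bp. Ankrd2 and Capn3 had no promoter peak.

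By fold and width in the own lists of both pools together, the 5 genes nearest to Ttn among 13244 were Adgrf5, Slfn5, Cdh5, Fhl2 and Tbx5, at distances of 0.37 to 0.70 in units of the spread over genes. Fhl2, the Z-disc gene above, had a fold of 14.2 with a width of 8692 bp in pool G, and a fold of 9.45 with 5389 bp in pool H. Tbx5, a transcription factor of heart development, had 10.7 with 9770 bp in pool G, and 7.33 with 5516 bp in pool H. Cdh5, a cadherin of endothelial cells, had 11.7 with 7858 bp in pool G, and 9.83 with 3399 bp in pool H. Adgrf5 had 12.6 with 8555 bp in pool G, and 9.43 with 4513 bp in pool H. The domain of Slfn5 was 9209 bp wide in pool G, against 4388 bp in pool H.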

How the data were processed

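The labels describe H3K4me3 chromatin immunoprecipitation of frozen heart tissue, with fragments of 200 to 600 bp. The software that called the peaks is not given in the sources used here. All deposited peak lists are in narrowPeak format, and both technical replicates of a pool share 1 alignment. The authors' deposited signal column was taken to be a fold enrichment (a ratio). The authors' -log10 q value of each peak was used for an alternative only. In the replicated list 667 peaks had q over 0.05.

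Genes and starts came from GENCODE M21. A promoter was 1000 bp either side of any protein-coding start, and a peak was counted on an overlap of at least 1 bp. Domains joined peaks across gaps of up to 1000 bp. High-CpG windows had an observed over expected ratio from 0.6 and a GC share from 0.5 upwards. Body peaks overlapped the gene and none of its promoter windows. Medians of the 9 genes stand beside those of all genes, with no test, because no list holds replicate values.

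The 9 genes and the other lists were chosen with earlier results of these data known. The genes named were the 9, all paralogs, the unoccupied members and 3 widest of each other list, where few enough, and the 5 nearest to Ttn; not every gene the rule names is reported here, and the leukocyte markers are not. Alternatives were each remaining list, peaks with -log10 q of at least 5, windows of 500 and 2000 bp, gaps of 0 and 3000 bp, a flank of 2000 bp, other transcript sets and the nearest peak. The transcript with the most exons was added after the data were seen. Overlaps were tested on simulated data against bedtools 2.31.1. Python 3.11.15, numpy 2.4.6, pandas 2.3.3, matplotlib 3.10.9, pysam 0.24.0 and samtools 1.23.1 were used.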

Additional observations from a re-analysis of the deposited data

How the results depend on the processing

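All 9 genes kept a promoter peak under each of 9 alternatives. The median fold enrichment of the 9 genes stayed between 7.71 and 10.98 over 10 alternatives, against 8.95, and the median downstream share between 96.2% and 100%, against 98.4%. The median domain width, 4322 bp, moved by more than the spread between the pools under 4 of 11: it was 2965 bp in pool H's list, 3198 bp with peaks of -log10 q of at least 5, 2750 bp with no gap joined and 6091 bp with gaps of 3000 bp joined. The number of genes with a body peak, 7, was 4 with peaks of -log10 q of at least 5 and between 5 and 8 under the other alternatives. The cause was not tested. Fewer genes had such a peak at the stricter q because weaker peaks are left out by construction.

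No paired analysis was possible because the lists hold no values per library, and the results come from no test. Read depth is unknown, so whether a weak peak missing from 1 pool's list is absent there cannot be told. Leaving out 1 pool is the other pool's own list, given above. Values at Myom1's first start include the mark of Myl12a and Myl12b.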
